A study of Mus musculus with 22 samples.

Results

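Pou5f1, Sox2, Nanog, Sall4 and Utf1 encode transcription factors and a chromatin factor of the core pluripotency circuit, and are 5 of the 24819 genes measured in both expression tables. They were taken by symbol, with no threshold on their values, and none was listed at 0 in any of the 22 libraries. The libraries are from E14 cells, a mouse embryonic stem cell line grown on gelatin with the cytokine LIF, harvested 3 days after siRNA transfection. siRpl14, siRpl11 and siDux were each given together with siNT, the pairs were siRpl14+siRpl11 and siRpl14+siDux, and the control was siNT given with itself. Set 1 held 2 libraries each of siRpl14, siRpl11, siRpl14+siRpl11 and siNT. Set 2 held 1 library each of siRpl14, siDux, siRpl14+siDux and siNT, and lies in the same table as set 1. Set 3, in the other table, held 2 libraries each of siRpl14, siDux, siRpl14+siDux and siNT, with 1 each of siRpl11 and siRpl14+siRpl11. All groups are of this 1 cell line. Separate cultures are not stated for the libraries of a group, so the p-values reflect how these libraries vary, possibly for technical reasons only.

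OCT4, the protein of Pou5f1, and SOX2 bind side by side on a composite DNA element and activate each other, Nanog, Utf1 and many other stem cell genes. NANOG is a homeodomain protein whose level is known to vary between cells of one LIF culture. SALL4 is a zinc finger protein that binds with OCT4 and NANOG and recruits the NuRD complex, a nucleosome remodeller with histone deacetylase activity. UTF1 is a chromatin-bound protein found in few cell types besides pluripotent and germ cells. RPL14 and RPL11 are structural proteins of the ribosome's large subunit, and Dux encodes a transcription factor of the early embryo. In bulk RNA, fewer cells expressing a gene and less RNA per cell cannot be told apart.

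The siRNA targets Rpl14 and Rpl11 were lowered in every library that received their siRNAs. Dux was low, and its knockdown could be compared only in set 2, with 1 library a group. As a percent of the siNT mean of the same set, Rpl14 was at 27.1 to 60.2% in siRpl14 and 15.6 to 35.3% in siRpl14+siRpl11 of set 1, at 34.6% in siRpl14 and 35.1% in siRpl14+siDux of set 2, and at 17.7 to 28.8% in the 5 libraries of set 3 that received siRpl14. Rpl11 was at 15.2 to 34.9% in siRpl11 and 13.2 to 33.4% in siRpl14+siRpl11 of set 1, and at 19.2% and 23.7% in those groups of set 3. Dux was at 0.0546 FPKM in siDux, 0.168 FPKM in siRpl14+siDux and 1.5 FPKM in siRpl14, against 0.306 FPKM in siNT of set 2. The siDux value lay below the 10th percentile of the values above 0 in that library, 0.0633 FPKM. In set 3 Dux was listed at 0 in 9 of the 10 libraries, and its knockdown could not be checked there. The stem cell genes Zfp42, Dppa5a, Tdgf1 and Esrrb were at 18.5 FPKM or more in every library. The share of genes with a value of 0 was 50.5 to 56.2% in set 3, against 30.1 to 32.1% in sets 1 and 2, so low values are resolved less finely in set 3.

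FPKM scales fragments by transcript length and by library size, so levels of different genes can be ordered. In sets 1 and 2 the median level was 949 FPKM for Pou5f1, 328 FPKM for Utf1, 260.4 FPKM for Sox2, 232 FPKM for Nanog and 86.1 FPKM for Sall4. Pou5f1 thus stood at rank 91 of all genes and Sall4 at rank 951. In set 3 the medians were 675 FPKM for Pou5f1, 234 FPKM for Nanog, 116 FPKM for Sox2, 56.3 FPKM for Utf1 and 13 FPKM for Sall4, with Sall4 at rank 3849. The tables may have been normalized apart, so the lower Sox2, Utf1 and Sall4 values of set 3 are a description and were not tested. Over the 12 libraries of sets 1 and 2 the highest value of Nanog was 3.72 times its lowest and that of Sall4 3.2 times, against 1.72 times for Pou5f1, 1.74 times for Utf1 and 1.48 times for Sox2. In set 3 the widest range was that of Utf1, at 4.08 times, and that of Nanog was 2.35 times.

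**Figure D1:**
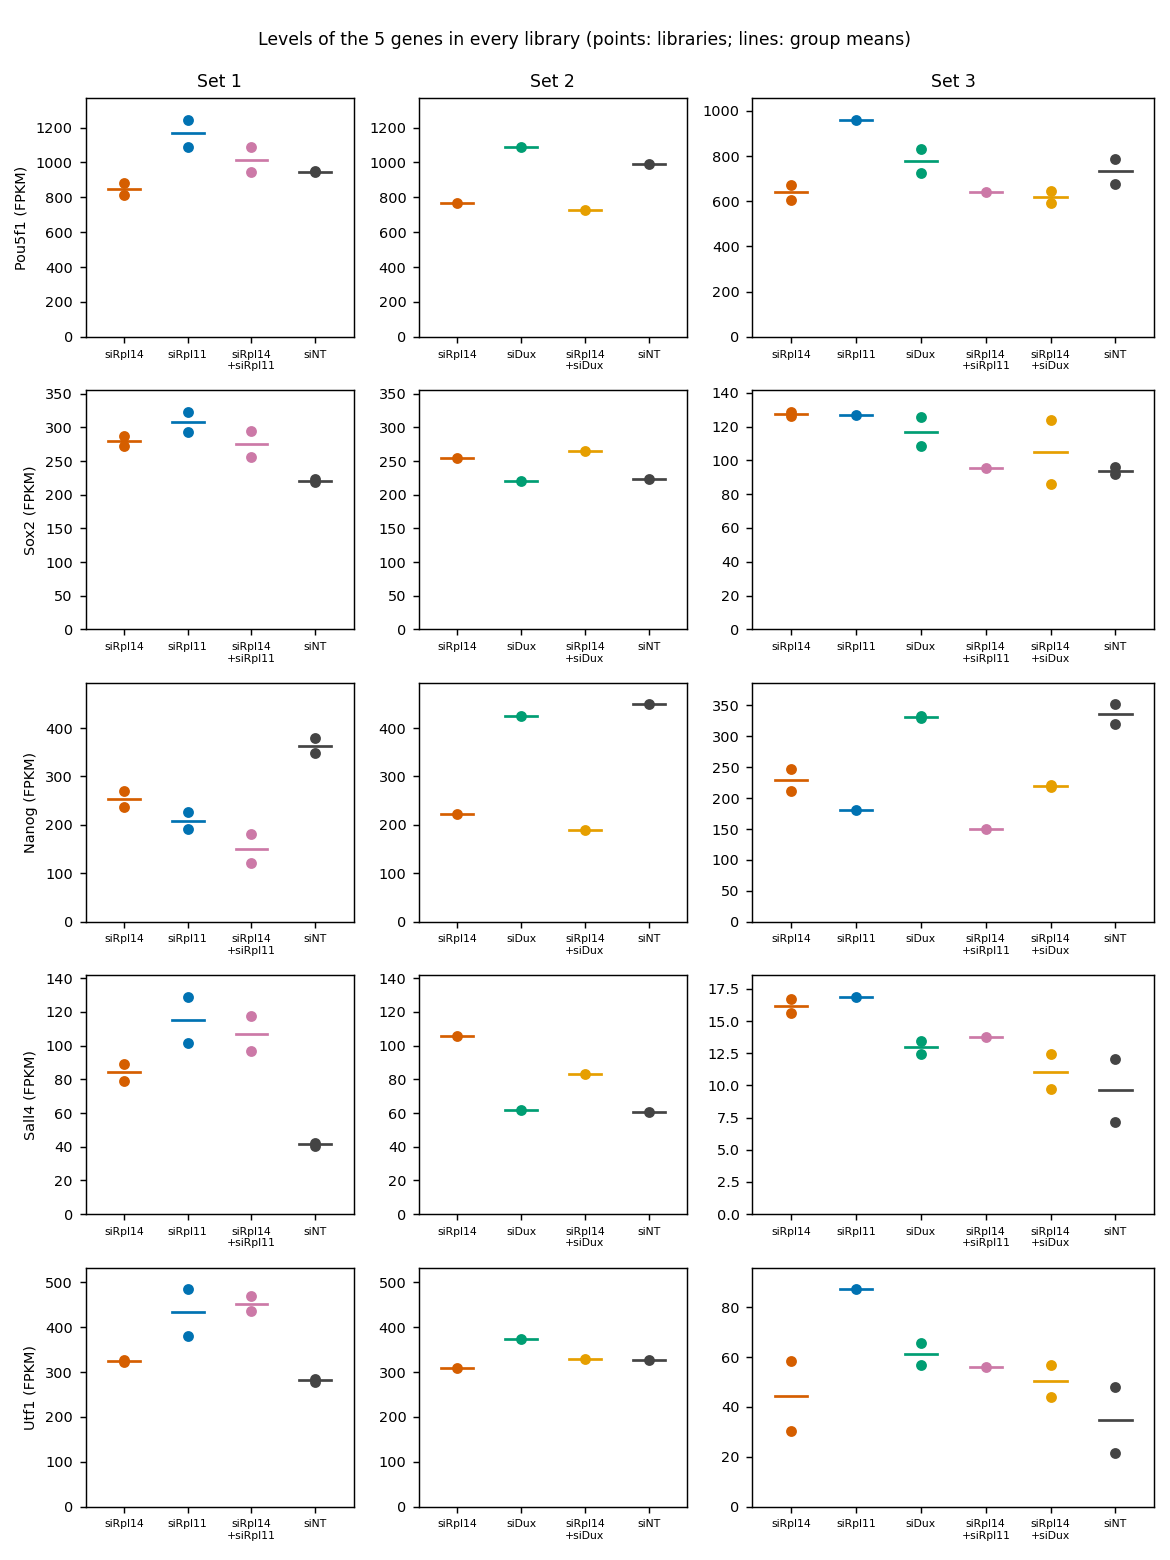
Levels in FPKM (vertical axes, linear, starting at 0, with a separate scale per table) of the 5 genes (panels top to bottom) in each library of the 3 sets (panels left to right). Points are libraries and lines are group means. Nanog is lower in every group that received siRpl14 or siRpl11 than in siNT of its set, while Sall4 in set 1 lies between 79.2 and 129 FPKM in the 3 knockdown groups, above 40.3 and 42.4 FPKM in siNT.

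The promoter windows of 3 members are shown because these genes moved in different ways although OCT4 and SOX2 are known to act on each of them. They are 300 base windows around an annotated start from RefSeq, build GRCm38.p6, all on the + strand: Nanog at chr6:122707239-122707538, Pou5f1 at chr17:35505782-35506081 and Utf1 at chr7:139943606-139943905. Nanog and Pou5f1 each had a second window, around another annotated start, which is not printed. The expression values were made on mm9, and no coordinate was converted. Capitals mark the core of the SOX2-OCT4 composite element in Nanog (TTGTNATGC, here on the other strand) and GC boxes (GGGCGG) in Pou5f1 and Utf1, with 2 overlapping GC boxes in the first run of capitals of Utf1.
Nanog: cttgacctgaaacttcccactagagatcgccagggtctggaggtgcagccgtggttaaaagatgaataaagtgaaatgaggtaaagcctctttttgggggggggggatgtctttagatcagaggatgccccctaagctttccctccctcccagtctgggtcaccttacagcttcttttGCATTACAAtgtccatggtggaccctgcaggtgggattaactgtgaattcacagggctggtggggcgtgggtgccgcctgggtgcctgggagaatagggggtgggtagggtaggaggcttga
Pou5f1: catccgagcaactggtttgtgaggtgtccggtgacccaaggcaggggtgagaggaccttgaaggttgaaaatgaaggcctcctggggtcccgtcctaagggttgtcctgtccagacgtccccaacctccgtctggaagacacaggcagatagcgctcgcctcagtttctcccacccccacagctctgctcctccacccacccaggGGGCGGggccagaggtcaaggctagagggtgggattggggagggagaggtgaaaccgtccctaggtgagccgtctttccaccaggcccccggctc
Utf1: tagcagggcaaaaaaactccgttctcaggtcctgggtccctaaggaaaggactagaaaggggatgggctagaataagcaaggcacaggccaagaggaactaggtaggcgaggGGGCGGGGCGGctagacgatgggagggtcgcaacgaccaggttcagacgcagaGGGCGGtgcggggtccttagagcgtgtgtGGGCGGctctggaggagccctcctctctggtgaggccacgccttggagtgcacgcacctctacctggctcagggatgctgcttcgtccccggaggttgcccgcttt
The composite core begins 72 bases before the start of the printed Nanog window and 148 bases before that of the second. It was found on either strand in 240 of 32851 promoter windows (0.731%). One GC box lies in the printed Pou5f1 window, 4 in the Utf1 window and 2 in that of Sox2 (chr3:34649745-34650044, not printed), and 35.7% of all windows hold one. The second Pou5f1 window (chr17:35508557-35508856) holds no GC box. A match says only that these letters occur in the window.

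Nanog fell with siRpl14 and with siRpl11, and its group mean was lowest where both were given. The group siRpl14+siRpl11 was not fitted against siRpl11 alone, and in set 3 each of these groups had 1 library. In set 1 it was at 270.2 and 237 FPKM in siRpl14, 227 and 191 FPKM in siRpl11 and 121 and 182 FPKM in siRpl14+siRpl11, against 349 and 378 FPKM in siNT. All 6 knockdown libraries lay below both siNT libraries, and no 2 groups overlapped. In set 2 it was at 221 FPKM in siRpl14, 425 FPKM in siDux and 189 FPKM in siRpl14+siDux, against 449 FPKM in siNT. Set 3 gave 212 and 246 FPKM in siRpl14, 180.2 FPKM in siRpl11, 149 FPKM in siRpl14+siRpl11, 333 and 329.6 FPKM in siDux and 221 and 217 FPKM in siRpl14+siDux, against 320.04 and 352 FPKM in siNT. Every library that received siRpl14 or siRpl11 was thus below the siNT libraries of its set, and the siDux libraries of set 3 lay within the range of siNT.

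Each siRNA was tested over all pairs of groups of one set that differ by that siRNA alone, with an exact two-sided permutation test within pairs on log2(FPKM + 1); 15 such tests were made, and their p-values are unadjusted. With siRpl14, Nanog was lower in 7 of 7 pairs without overlap, with differences of -1.17 to -0.27, and the weighted mean difference was -0.61 (11 against 11 libraries, exact permutation p = 0.000193, the smallest the design allows). Of the 11410 genes that reached 1 FPKM in 2 or more libraries of each table, 5.1% had lower group means in all 7. How many of these also had no overlap was not counted. With siRpl11, Nanog was lower in 4 of 4 pairs, with a mean difference of -0.77 (6 against 8 libraries, exact permutation p = 0.00309, the smallest possible), and 19.1% of genes were lower in all 4. The siRpl14 difference was -0.70 without set 3 and -0.51 in set 3 alone, and the siRpl11 difference was -0.79 and -0.75. With siDux the mean difference of Nanog was -0.08 (6 against 6 libraries, exact permutation p = 0.208), lower in 4 of 4 pairs, as were 8.33% of genes.

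Across all 12129 genes of set 1, limma called 31.5% changed in siRpl14, 44.3% in siRpl11 and 41.6% in siRpl14+siRpl11 against siNT at an adjusted p under 0.05. Among the 5 members it called 2 in siRpl14, 4 in siRpl11 and 4 in siRpl14+siRpl11, all 3 contrasts sharing the siNT libraries. Nanog was one of those called in siRpl11 (log2 fold change -0.80 ± 0.19 SE, limma adjusted p = 0.0124) and in siRpl14+siRpl11 (-1.29 ± 0.19, limma adjusted p = 0.00376), and missed the threshold in siRpl14 (-0.52 ± 0.19, limma adjusted p = 0.0678). In siRpl14+siRpl11 against siRpl14, a contrast with 7.24% of genes called, Nanog was the 1 member called, at -0.77 ± 0.19 (limma adjusted p = 0.0489). That call was lost without any one library but replicate 2 of siRpl14+siRpl11, and the fold was -0.48 without replicate 1 of siRpl14+siRpl11, the library with the lowest Nanog. The siRpl11 call was lost without replicate 1 (adjusted p = 0.0602) or replicate 2 (0.0714) of siNT or replicate 2 of siRpl11 (0.0764). The median of all genes was -0.11 in siRpl11 against siNT and moved to 0.03 when libraries were rescaled by median ratios, where 55.4% rather than 36% of the called genes were higher. That share moved likewise to 53.8% rather than 39.8% for siRpl14+siRpl11 against siNT and to 25.4% rather than 8.66% against siRpl14, where the median moved to 0.02 against -0.09.

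In set 3, with 8 libraries in the fit, limma called 0 of the 5 members in each contrast, while 0.66% of 13189 genes were called in siRpl14, 0.00758% in siDux and 1.02% in siRpl14+siDux against siNT. At an unadjusted p under 0.05 it found 1 member, Nanog, in siRpl14 (-0.55 ± 0.15, limma adjusted p = 0.203) and in siRpl14+siDux (-0.61 ± 0.15, limma adjusted p = 0.116), and 0 members in siDux. In siRpl14+siDux against siRpl14 and in the interaction, with 0.0152% of genes called in each, it likewise called 0 members, and 0 had an unadjusted p under 0.05, as 6.78% and 5.3% of all genes did. Of all genes, 12.4%, 14.8% and 5% had such a p in siRpl14, siRpl14+siDux and siDux.

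**Figure D2:**
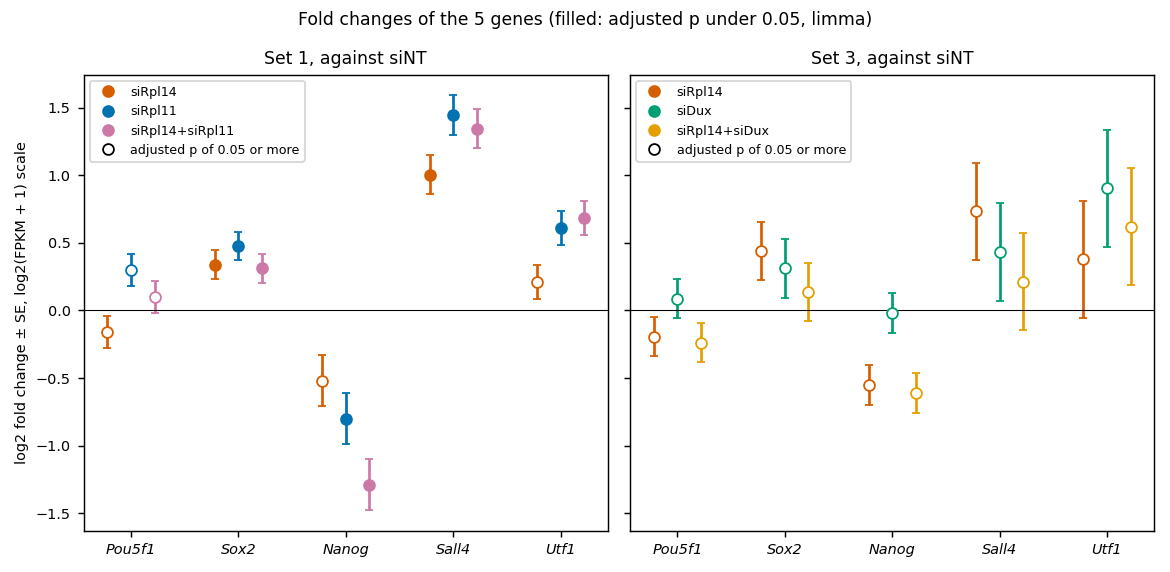
Log2 fold changes against siNT on the log2(FPKM + 1) scale (vertical axis) of the 5 genes in set 1 (left) and set 3 (right), with bars of 1 SE from limma and n = 2 libraries a group. Filled points have an adjusted p under 0.05. Sall4 reaches 1.45 in siRpl11 of set 1 and Nanog -1.29 in siRpl14+siRpl11, and no point of set 3 is filled.

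Pou5f1, which encodes OCT4 and was the most abundant of the 5, moved little and in opposite directions with the 2 ribosomal protein siRNAs. In set 1 it was at 815 and 881 FPKM in siRpl14, 1088 and 1245 FPKM in siRpl11 and 1086 and 948 FPKM in siRpl14+siRpl11, against 945 and 950.2 FPKM in siNT. siRpl14 lay below siNT and siRpl11 above it, and siRpl14+siRpl11 overlapped siNT. In set 2 it was at 769.7 FPKM in siRpl14, 1086 FPKM in siDux and 726 FPKM in siRpl14+siDux, against 989 FPKM in siNT. Set 3 gave 674 and 605 FPKM in siRpl14, 961 FPKM in siRpl11, 639 FPKM in siRpl14+siRpl11, 829.7 and 727 FPKM in siDux and 592 and 647 FPKM in siRpl14+siDux, against 789 and 677 FPKM in siNT. In all 3 sets each group with siRpl14 was below its matched group without it.

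Over the 7 pairs Pou5f1 fell with siRpl14 in 7 of 7 without overlap, by a mean of 0.30 on the log2 scale (exact permutation p = 0.000193), a difference exceeded in size by 41.9% of genes. By group means, with or without overlap, 5.1% of genes were lower in all 7. The mean difference of Pou5f1 was -0.28 without set 3, -0.33 in set 3 alone and -0.19 after quantile normalization (exact permutation p = 0.0272). With siRpl11 it rose by a mean of 0.25 (exact permutation p = 0.00926), higher in 4 of 4 pairs, where 8.97% of genes were higher in all 4; the smallest of these differences, 0.00, came from groups of set 3 that overlapped. After quantile normalization that difference was 0.16 (exact permutation p = 0.123). In limma's fit of set 1 Pou5f1 was called in no contrast. Its log2 fold change was -0.16 ± 0.12 in siRpl14 (adjusted p = 0.315), 0.30 ± 0.12 in siRpl11 (adjusted p = 0.0722) and 0.10 ± 0.12 in siRpl14+siRpl11 (adjusted p = 0.521). After quantile normalization the log2 fold change in siRpl14 turned from a fall to a rise, of 0.08.

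**Figure D3:**
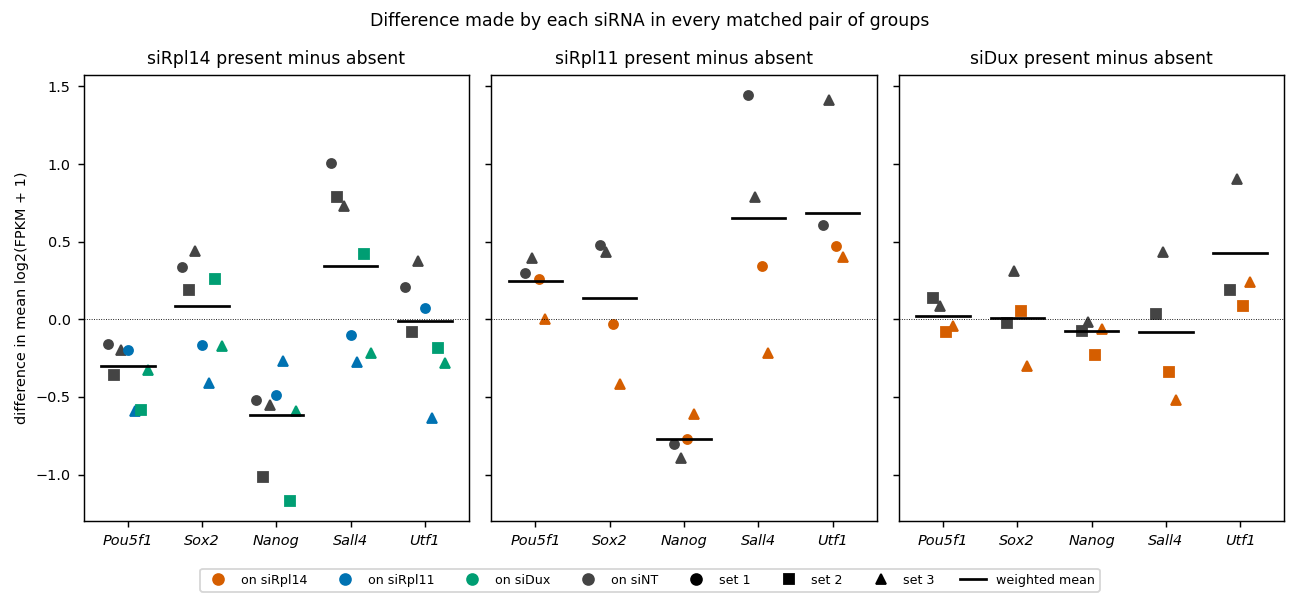
Difference in mean log2(FPKM + 1) between the group with and the matched group without an siRNA (vertical axis), for each matched pair of groups and each gene. Colours give the siRNA both groups share, shapes the set, and lines the mean weighted by group sizes. All 7 siRpl14 pairs lie below 0 for Pou5f1 and Nanog, and Sall4 and Utf1 lie on both sides.

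Sox2, the HMG-box partner of OCT4, was higher than siNT in the knockdown groups of set 1. It was at 272 and 288 FPKM in siRpl14, 294 and 323 FPKM in siRpl11 and 256 and 294 FPKM in siRpl14+siRpl11, against 224 and 219 FPKM in siNT. The 6 knockdown libraries were all above both siNT libraries, and siRpl14+siRpl11 overlapped the single knockdowns. limma called it higher in siRpl14 (0.34 ± 0.11, adjusted p = 0.0439), siRpl11 (0.48 ± 0.11, adjusted p = 0.0103) and siRpl14+siRpl11 (0.31 ± 0.11, adjusted p = 0.0465), where 18.1%, 16.0% and 16.6% of genes were called higher and 13.4%, 28.4% and 25% lower. The siRpl14 and siRpl14+siRpl11 calls were both lost without any one of the 8 libraries, with adjusted p-values up to 0.188 and 0.245, and the siRpl11 call without replicate 1 of siNT (0.0507) or replicate 2 of siRpl11 (0.0812). In set 2 Sox2 was at 255 FPKM in siRpl14, 221 FPKM in siDux and 264 FPKM in siRpl14+siDux, against 224 FPKM in siNT. In set 3 it was at 126 and 129 FPKM in siRpl14, 127 FPKM in siRpl11, 95.3 FPKM in siRpl14+siRpl11, 126 and 108 FPKM in siDux and 85.9 and 124 FPKM in siRpl14+siDux, against 96 and 91.7 FPKM in siNT. The single knockdowns of set 3 were above siNT, and the paired knockdowns overlapped it. Over matched pairs Sox2 was higher with siRpl14 in 4 of 7 (mean difference 0.08, exact permutation p = 0.375). With siRpl11 it was higher in 2 of 4 (0.14, exact permutation p = 0.302), and the difference was 0.065 to 0.28 without any one library. With siDux it was higher in 2 of 4 (0.01, exact permutation p = 0.944). Sox2 lies inside the noncoding gene Sox2ot on the same strand, which was at 0.414 to 1.36 FPKM in sets 1 and 2. Of 4 tested neighbours and copies of the members, 1, H2-Q10 beside Pou5f1, was called lower in each knockdown of set 1.

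Sall4 showed the largest rise of the 5 genes in set 1. It was at 79.2 and 88.9 FPKM in siRpl14, 101 and 129 FPKM in siRpl11 and 118 and 96.7 FPKM in siRpl14+siRpl11, against 40.3 and 42.4 FPKM in siNT. Every knockdown library lay well above both siNT libraries, and siRpl11 and siRpl14+siRpl11 overlapped. limma gave 1.00 ± 0.15 in siRpl14 (adjusted p = 0.00403), 1.45 ± 0.15 in siRpl11 (adjusted p = 0.00202) and 1.35 ± 0.15 in siRpl14+siRpl11 (adjusted p = 0.00266), and these 3 calls held in every alternative fit and without any one library. Larger absolute changes were seen in 7.08%, 2.01% and 2.94% of genes. The combined change was smaller than the sum of the single ones, with an interaction of -1.10 ± 0.21 (limma adjusted p = 0.0338), the 1 member called among 4.49% of genes. The interaction call was lost without replicate 1 or 2 of siNT or of siRpl11, or replicate 2 of siRpl14 or of siRpl14+siRpl11 (-1.28 to -0.93, adjusted p = 0.0587 to 0.133).

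In set 2 Sall4 was at 106 FPKM in siRpl14, 62.1 FPKM in siDux and 83.3 FPKM in siRpl14+siDux, against 60.7 FPKM in siNT. In set 3 its level was far lower, at 15.6 and 16.7 FPKM in siRpl14, 16.9 FPKM in siRpl11, 13.8 FPKM in siRpl14+siRpl11, 12.5 and 13.5 FPKM in siDux and 12.5 and 9.7 FPKM in siRpl14+siDux, against 7.19 and 12.1 FPKM in siNT. Each of those groups but siRpl14+siDux lay above both siNT libraries. Set against siNT alone, siRpl14 was higher in all 3 sets, by 1.00 in set 1, 0.79 in set 2 and 0.73 in set 3. On top of siRpl11 the difference was -0.10 in set 1, where the groups overlapped, and -0.27 in set 3, and on top of siDux it was 0.42 in set 2 and -0.22 in set 3. Over all 7 pairs the mean difference with siRpl14 was 0.34 (exact permutation p = 0.0449), and it was 0.50 without set 3 (exact permutation p = 0.0694) and 0.15 in set 3 alone (exact permutation p = 0.583). That call was lost on leaving out any one of 12 of the 22 libraries, with p up to 0.086. With siRpl11 it was 0.65 (exact permutation p = 0.034), higher in 3 of 4 pairs, 0.89 without set 3 and 0.29 in set 3 alone. Its p was above 0.05, and up to 0.0926, without replicate 1 of siRpl14 of set 1 (0.67), replicate 1 of siRpl14+siRpl11 of set 1 (0.65) or the siRpl11 library of set 3 (0.62).

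Utf1, which lies downstream of OCT4 and SOX2, rose with siRpl11. In set 1 it was at 324 and 327 FPKM in siRpl14, 382 and 485 FPKM in siRpl11 and 470.3 and 435 FPKM in siRpl14+siRpl11, against 278 and 286 FPKM in siNT. Both groups with siRpl11 were above siRpl14, which was above siNT. limma called it higher in siRpl11 (0.61 ± 0.13, adjusted p = 0.00813) and siRpl14+siRpl11 (0.68 ± 0.13, adjusted p = 0.00662), not in siRpl14 (0.21 ± 0.13, adjusted p = 0.229). The siRpl11 call was lost without replicate 1 of siNT (0.0513) or replicate 2 of siRpl11 (0.0603), and the siRpl14+siRpl11 call without replicate 1 of siRpl14+siRpl11 (0.0517). Set 2 gave 309.8 FPKM in siRpl14, 374 FPKM in siDux and 329 FPKM in siRpl14+siDux, against 328 FPKM in siNT. In set 3 the libraries of one group differed widely, with 58.4 and 30.3 FPKM in siRpl14, 87.2 FPKM in siRpl11, 55.9 FPKM in siRpl14+siRpl11, 65.6 and 56.8 FPKM in siDux and 56.9 and 43.9 FPKM in siRpl14+siDux, against 48.2 and 21.4 FPKM in siNT. The siRpl11 library was the highest and a siNT library the lowest.

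Over matched pairs Utf1 rose with siRpl11 in 4 of 4 (mean difference 0.69, exact permutation p = 0.0154), as did 8.97% of genes. It was higher with siDux in 4 of 4 pairs (0.43, exact permutation p = 0.111), as were 9.4% of genes. Without any one library this siDux difference was 0.23 to 0.57. With siRpl14 its mean difference was -0.01 (exact permutation p = 0.928), with 3 pairs higher and 4 lower, and turned to 0.04 after quantile normalization and 0.05 without set 3.

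Within a library, ratios of members do not depend on the scaling of that library. Nanog to Pou5f1 was 0.269 to 0.332 in siRpl14, 0.153 to 0.208 in siRpl11 and 0.111 to 0.192 in siRpl14+siRpl11 of set 1, against 0.369 to 0.398 in siNT. In set 3 it was 0.187 in siRpl11 and 0.234 in siRpl14+siRpl11, below the range of 0.405 to 0.519 in siNT. siRpl14 of set 3, at 0.315 to 0.407, overlapped siNT in this ratio, and Pou5f1 was itself lower there. Sall4 to Pou5f1 in set 1 was 0.0973 to 0.101 in siRpl14, 0.0933 to 0.104 in siRpl11 and 0.102 to 0.108 in siRpl14+siRpl11, against 0.0426 to 0.0447 in siNT. The 3 knockdown groups overlapped in part, and all lay well above siNT of set 1. In set 3 this ratio was 0.0232 to 0.0277 in siRpl14 and 0.0216 in siRpl14+siRpl11, above siNT at 0.00911 to 0.0178. It was 0.0176 in siRpl11, 0.015 to 0.0185 in siDux and 0.015 to 0.021 in siRpl14+siDux, which all overlapped siNT. Nanog to Sall4 was 2.67 to 3.41 in siRpl14, 1.48 to 2.23 in siRpl11 and 1.03 to 1.88 in siRpl14+siRpl11, against 8.66 to 8.91 in siNT of set 1.

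**Figure D4:**
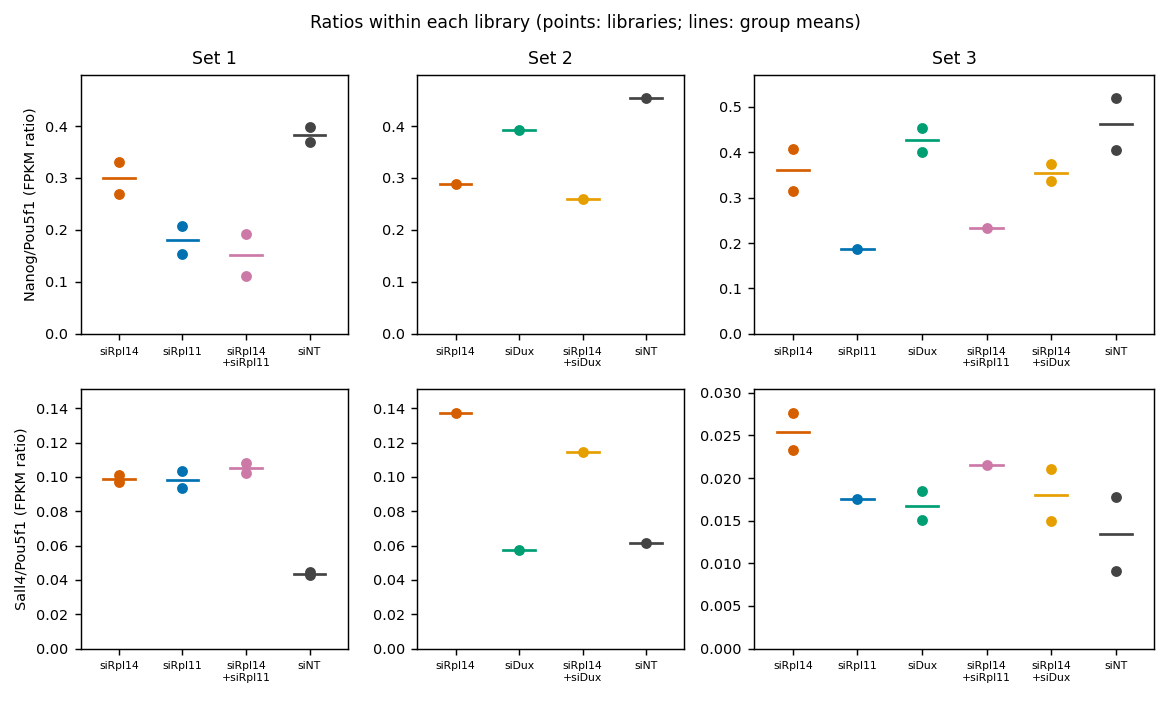
Ratio of Nanog to Pou5f1 (top) and of Sall4 to Pou5f1 (bottom) in FPKM within each library of the 3 sets (vertical axes, linear, from 0). Points are libraries and lines group means. In set 1 Nanog to Pou5f1 is at most 0.332 in the knockdown groups, below 0.369 in siNT, and Sall4 to Pou5f1 is at least 0.0933, above 0.0447.

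The members could be set against how far the target itself was lowered, as a description of 2 libraries a group. In each of the 3 knockdown groups of set 1 the library with less target mRNA (Rpl14 at 27.1% against 60.2% in siRpl14, Rpl11 at 15.2% against 34.9% in siRpl11, Rpl14 at 15.6% against 35.3% in siRpl14+siRpl11) also had the lower Nanog. It had the higher Pou5f1, Sall4 and Utf1 in 3 of 3 groups and the higher Sox2 in 2 of 3. The same libraries deviated together over many genes: 30.5% of the 12129 genes were higher and 29.2% lower in all 3 groups, so the members do not stand out in this. In set 3, where the libraries of a group differed less in Rpl14 (24.6% against 26.8% in siRpl14, 22.7% against 28.8% in siRpl14+siDux), Utf1 was lower in the library with less Rpl14 in 2 of 2 groups, the reverse of set 1. Sox2 was higher there in 2 of 2, and Pou5f1, Nanog and Sall4 were each higher in 1 and lower in 1. Of 13189 genes, 20.3% were higher and 24.8% lower in both groups.

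Gene lists around the circuit are read against all genes of set 1, of which 18.1% were called higher and 13.4% lower in siRpl14, 16.0% and 28.4% in siRpl11, and 16.6% and 25% in siRpl14+siRpl11. In siRpl14+siRpl11 against siRpl14, 7.24% of all genes were called in either direction. Partner transcription factors were called in both directions, in numbers near those shares. Of 20, limma called 3 higher and 4 lower in siRpl14, 5 and 6 in siRpl11, and 5 and 6 in siRpl14+siRpl11. Tcf7l1, a Wnt pathway repressor of Nanog, rose by 0.94 ± 0.25 in siRpl14, 1.80 ± 0.25 in siRpl11 and 1.84 ± 0.25 in siRpl14+siRpl11. Tfcp2l1, a factor of naive stem cells downstream of LIF, fell in the same groups, with log2 fold changes of -0.97, -1.69 and -1.83 (each ± 0.25). Prdm14, which restrains differentiation signalling and DNA methylation, fell in siRpl14 (-0.75 ± 0.17) and in siRpl14+siRpl11 (-1.43 ± 0.17), and was the 1 partner called against siRpl14 (-0.68 ± 0.17, limma adjusted p = 0.0487). Prdm14 was also called lower in siRpl11. Zscan10, a zinc finger factor, rose by 1.06 ± 0.24 in siRpl11 and was also called higher in siRpl14+siRpl11. The median fold of the list was -0.14, -0.07 and -0.07, against 0.03, -0.11 and -0.07 over all genes. In siRpl11 the counts were 7 higher and 4 lower after median-ratio rescaling, and in siRpl14 they ranged from 0 to 4 higher and 0 to 6 lower without any one library.

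Known OCT4 and SOX2 target genes were also called in both directions, in contrasts where Pou5f1 was not called and Sox2 was called higher. Of 20, 5 were called higher and 5 lower in siRpl14, 10 and 3 in siRpl11, and 8 and 6 in siRpl14+siRpl11. Of all genes, 18.1%, 16.0% and 16.6% were called higher and 13.4%, 28.4% and 25% lower. The higher calls lay above these shares in each group, most in siRpl11, and these departures were not tested. Lefty1, a secreted inhibitor of Nodal signalling, rose by 1.61 ± 0.10 in siRpl14 and by 1.87 ± 0.10 in siRpl14+siRpl11. Lin28a, an RNA-binding inhibitor of let-7 processing, rose by 1.85 ± 0.22 in siRpl11 and 1.76 ± 0.22 in siRpl14+siRpl11, and Dppa2, an activator of early embryonic genes, by 1.34 ± 0.26 in siRpl11. Spp1, a secreted phosphoprotein, fell in siRpl14, siRpl11 and siRpl14+siRpl11 (-1.19, -1.37 and -1.66, each ± 0.32), and Tcl1, an activator of AKT signalling, fell in siRpl14 (-1.25 ± 0.25). Lefty1 was also called higher in siRpl11, Lin28a in siRpl14, and Dppa2 in siRpl14 and siRpl14+siRpl11. Tcl1 was also called lower in siRpl11 and siRpl14+siRpl11. The list's median fold was 0.19, 0.42 and 0.31, against 0.03, -0.11 and -0.07 over all genes. In set 3 that median was -0.32 in siRpl14, -0.13 in siDux and -0.63 in siRpl14+siDux. The summed level of the list fell in set 1. It was 5053 to 5693 FPKM in siRpl14, 6500 to 6684 FPKM in siRpl11 and 5712 to 5822 FPKM in siRpl14+siRpl11, against 7451 to 8457 FPKM in siNT. After median-ratio rescaling the siRpl11 counts were 11 higher and 2 lower. Tdgf1, a Nodal co-receptor, fell by 1.21 ± 0.16 in siRpl14+siDux of set 3 (limma adjusted p = 0.0163) and was the one gene of all the lists described here called in that set.

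Among 25 chromatin partners, including subunits of NuRD and of the SWI/SNF remodeller, 6 were called higher and 2 lower in siRpl14, 8 and 4 in siRpl11, and 6 and 2 in siRpl14+siRpl11, with median folds of 0.07, 0.12 and 0.14. With higher and lower calls pooled, these counts were near or below the shares of all genes called, which were 31.5%, 44.3% and 41.6%. The higher calls alone lay above the shares of all genes called higher, 18.1%, 16.0% and 16.6%. The lower calls lay below the shares called lower, 13.4%, 28.4% and 25%. These departures from the shares were not tested. Chd1, a remodeller of open chromatin, rose by 0.82 ± 0.16 in siRpl11 and 0.89 ± 0.16 in siRpl14+siRpl11. Arid1a, a SWI/SNF subunit, rose by 0.69 ± 0.18 in siRpl14 and 0.77 ± 0.18 in siRpl14+siRpl11. Wdr5, a core subunit of histone H3 methyltransferase complexes, fell in siRpl14, siRpl11 and siRpl14+siRpl11 (-0.57, -0.81 and -0.79, each ± 0.13). Parp1, the DNA damage polymerase, fell in siRpl14 (-0.72 ± 0.17), and Mta1, a NuRD subunit, in siRpl11 (-0.84 ± 0.12). Chd1 was also called higher in siRpl14 and Arid1a in siRpl11. Parp1 was also called lower in siRpl11 and siRpl14+siRpl11. After median-ratio rescaling the siRpl11 counts were 12 higher and 2 lower.

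Of 18 paralogs of the members in the POU, SOX and SALL families, 13 could be tested in set 1. Sall2, the relative of Sall4, rose by 1.55, 2.61 and 2.68 in siRpl14, siRpl11 and siRpl14+siRpl11 (each ± 0.45), and Pou3f1, a POU factor of the primed epiblast, by 1.04, 1.57 and 1.44 (each ± 0.24). Sox15, a SOX factor of stem cells, fell in siRpl11 (-1.78 ± 0.23) and siRpl14+siRpl11 (-2.02 ± 0.23), and in siRpl14+siRpl11 against siRpl14 (-1.52 ± 0.23, limma adjusted p = 0.0121). The counts were 2 higher and 0 lower, 3 and 1, and 3 and 1, and 0 and 1 against siRpl14. Of all genes, 31.5%, 44.3% and 41.6% were called in either direction, and 7.24% against siRpl14. With higher and lower calls pooled, the paralog counts were near or below these shares. With quantile normalization 6 paralogs were called higher in siRpl11.

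Markers of other cell types moved alongside the members, and their part in the results was not tested. Germ layer and primed epiblast markers, of which 7 of 12 could be tested, gave 5 higher and 0 lower in siRpl14, 3 and 1 in siRpl11, and 4 and 1 in siRpl14+siRpl11, and 3 and 0 against siRpl14. Of all genes, 18.1%, 16.0% and 16.6% were called higher against siNT, and 7.24% in either direction against siRpl14. The summed level of these markers was 145 to 146 FPKM in siRpl14, 196 to 209 FPKM in siRpl11 and 190.3 to 214 FPKM in siRpl14+siRpl11, against 84 to 104 FPKM in siNT. Otx2, a homeobox gene of the epiblast, rose by 2.05, 3.08 and 2.98 (each ± 0.17), Dnmt3b, a DNA methyltransferase, by 1.31 and 1.45 in the siRpl11 and siRpl14+siRpl11 groups (each ± 0.13), Wnt3, a ligand of gastrulation, by 2.28 ± 0.44 in siRpl14, and Pax6, a neural homeobox gene, by 1.20 ± 0.20 in siRpl11. Dnmt3b was also called higher in siRpl14, and Pax6 in siRpl14+siRpl11. The 1 gene of this list called lower, in siRpl11 and in siRpl14+siRpl11, was Tubb3. T, Mixl1, Gsc and Neurog2 of this list were listed at 0 in every library of set 3.

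Trophectoderm markers, 9 of 12 tested, gave 3 higher and 1 lower in siRpl14, 0 and 4 in siRpl11, 0 and 4 in siRpl14+siRpl11, and 0 and 4 against siRpl14. Of all genes, 18.1% were called higher in siRpl14, 28.4% lower in siRpl11 and 25% lower in siRpl14+siRpl11. Against siRpl14, 7.24% were called in either direction. Krt7, a keratin, rose by 1.63 ± 0.21 in siRpl14 and fell by 1.70 ± 0.21 in siRpl14+siRpl11 against siRpl14, and Krt8, another keratin, fell by 1.07 ± 0.26 in siRpl11. Gata3, a trophectoderm factor, rose by 1.40 ± 0.23 in siRpl14, and Tead4, which acts upstream of it, fell by 1.15 ± 0.18. Tead4 was called lower in siRpl14, siRpl11 and siRpl14+siRpl11, and Krt8 also in siRpl14+siRpl11. The sum of the trophectoderm markers was 61.7 to 88.7 FPKM in siRpl14, 43.1 to 44.8 FPKM in siRpl11 and 40.3 to 40.9 FPKM in siRpl14+siRpl11, against 54.4 to 60.5 FPKM in siNT. In set 2 it was 112 FPKM in siRpl14, 44.3 FPKM in siDux and 175 FPKM in siRpl14+siDux, against 43.2 FPKM in siNT. Primitive endoderm markers, 6 of 10 tested, gave 0 higher and 1 lower, the laminin Lama1, in each knockdown of set 1, with a sum of 10.4 to 24.6 FPKM in the knockdowns, against 21.7 to 25.4 FPKM in siNT. Fibroblast markers, 2 of 9 tested, gave Thy1 and Fbln1 lower in each, with a sum of 22.6 to 31.5 FPKM in the knockdowns, against 51.8 to 54.5 FPKM in siNT, and the fibroblast genes Dcn and Postn were listed at 0 in every library of the 3 sets.

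The genes whose levels most resembled each member were ranked by Pearson r of log2(FPKM + 1) over the 12 libraries of sets 1 and 2, among 8251 genes, which describes these libraries and groups and carries no test. For Nanog they were Nr5a2 (r = 0.992), Manba (0.978) and 1700061G19Rik (0.974), and over the 10 libraries of set 3 the same pairs gave 0.433, 0.705 and 0.599. For Sall4 they were Mybbp1a (0.991), Psmc5 (0.988) and Gtf3c6 (0.984), with 0.66, 0.241 and 0.493 in set 3. Pou5f1 was closest to Foxo4 (0.955), Chek1 (0.923) and Hus1 (0.921), at 0.549, 0.481 and 0.674 in set 3. Sox2 was closest to Lsm12 (0.937), Dnmt3l (0.933) and Ska2 (0.92), at 0.277, 0.222 and 0.294 in set 3. Utf1 was closest to Tfap4 (0.949), Zic2 (0.948) and Maz (0.943), at 0.105, 0.302 and -0.463 in set 3. The highest r of these 15 genes in set 3 was the 0.705 of Manba with Nanog.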

How the data were processed

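Poly(A) RNA was sequenced after a stranded mRNA library kit, per the labels' protocols. The deposited values are FPKM per gene (fragments scaled by transcript length and library size). The authors made them with STAR and Cuffnorm on mm9, according to the submitters' processing notes. For tool versions, annotation, strand setting and how Cuffnorm normalized, the sources used here give nothing. No counts were available, so the depth is unknown and no counting interval is given. Whether Cuffnorm scaled the tables together is not stated, so tests were made within a table. Genes on the opposite strand overlap Pou5f1 and Sall4 and were not analysed here; with the strand setting unknown, their reads cannot be told apart.

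From the FPKM, limma 3.58.1 (R 4.3.3, trend and robust empirical Bayes) was run on log2(FPKM + 1), separately for set 1 and set 3. Genes were kept that reached 1 FPKM in 2 or more of the fitted libraries. p-values were adjusted by Benjamini-Hochberg over all genes tested, with a threshold of 0.05. A fold change on this scale understates changes of low genes. Set 2 and the single libraries of set 3 entered no limma fit. Each siRNA was also tested by an exact two-sided permutation within matched pairs of groups, weighted by group sizes, with Python 3.11.15 and numpy 2.4.6. The fits were also run on simulated data, with normal noise independent between libraries. That noise lacks the deviations that libraries of set 1 shared, so no conclusion is drawn from it. Sets were read from the style of the library titles, and groups from the siRNAs in them. Set 1 comparisons against siNT share their controls.

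The members and gene lists were chosen with earlier results of these data known. Genes of a list are named where they are among its 3 largest called changes in a contrast. Tubb3 is named as the 1 gene of its list called lower. Likeness is the highest Pearson r. Promoter sequences are from RefSeq, GRCm38.p6. The alternatives were a pseudocount of 0.1, no filter, a mean of at least 5 FPKM, median-ratio and quantile rescaling, a replicate block, sets 1 and 2 together, the single libraries kept, set 3 left out or alone, and leaving out each library.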

Additional observations from a re-analysis of the deposited data

Results flagged for a closer look

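For the response of Sall4 to siRpl14 and siRpl11 in set 1, limma gave an interaction of -1.10 ± 0.21 on the log2 scale (adjusted p = 0.0338), with 1.35 in siRpl14+siRpl11 against 1.00 in siRpl14 and 1.45 in siRpl11, each relative to siNT. The call was lost without any one of 6 of the 8 libraries (adjusted p = 0.0587 to 0.133), with no filter on low values (0.0536) and with the replicate block (0.0607).

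In 3 cases every library of a group lay above the siNT mean in one set and below it in another, and the difference between sets was not tested. Pou5f1 in siRpl14+siRpl11 minus siNT was 0.0983 in set 1, where 1 of its 2 libraries lay within the range of siNT, and -0.193 in set 3. Sox2 in siDux minus siNT was -0.022 in set 2 and 0.311 in set 3. Utf1 in siRpl14 minus siNT was 0.207 in set 1 and -0.08 in set 2.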

How the results depend on the processing

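The calls of Sall4 against siNT in set 1 and of Nanog in siRpl14+siRpl11 held in every alternative, and the siRpl14 and siRpl11 differences of Nanog over matched pairs kept their sign in each. Members called were 1 rather than 2 in siRpl14 of set 1 with no filter, median-ratio rescaling or the replicate block. Against siRpl14, siRpl14+siRpl11 had 0 members rather than 1 with a pseudocount of 0.1, no filter, a mean of at least 5 FPKM, quantile normalization or the block, and 2 with sets 1 and 2 together. The interaction had 0 rather than 1 with no filter or the block. Genes called in set 1 were 2385 (mean of at least 5) and 5904 (sets 1 and 2) rather than 3822 in siRpl14, 345 (mean of at least 5), 471 (quantile), 539 (block) and 1444 (sets 1 and 2) rather than 878 in siRpl14+siRpl11 against siRpl14, and 313 (no filter), 145 (mean of at least 5), 27 (block) and 1811 (sets 1 and 2) rather than 544 for the interaction. In set 3 they were 54 (no filter) rather than 87 in siRpl14, 0 (block) and 2 (single libraries kept) rather than 1 in siDux, 16 (pseudocount 0.1), 7 (mean of at least 5) and 1 (block) rather than 2 in siRpl14+siDux against siRpl14, and 1 (no filter, block) and 4 (single libraries kept) rather than 2 for the interaction.

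Without 1 library, genes called ranged from 752 to 3851 in siRpl14, 1778 to 5592 in siRpl11, 1307 to 5255 in siRpl14+siRpl11, 79 to 670 against siRpl14 and 2 to 1199 for the interaction of set 1, and members called from 1 to 2, 1 to 4, 2 to 3, 0 to 1 and 0 to 1. In set 3 genes called ranged from 8 to 45 in siRpl14, 26 to 90 in siRpl14+siDux, 0 to 3 against siRpl14 and 0 to 2 for the interaction, and were 0 in siDux. Signs changed on median-ratio rescaling for Sox2 in siRpl14+siRpl11 against siRpl14 (0.11), the Nanog interaction of set 1 (-0.0020, and -0.0034 with quantile normalization) and Nanog in siDux of set 3 (0.0042), on quantile normalization for Pou5f1 in siRpl14 of set 1 (0.084), and with sets 1 and 2 for the Pou5f1 interaction (0.029). Without 1 library of set 1 the interaction spanned 0 for Pou5f1 (-0.14 to 0.061), Nanog (-0.26 to 0.33) and Utf1 (-0.31 to 0.038), as did Sox2 in siRpl14+siRpl11 against siRpl14 (-0.13 to 0.071). In set 3 the same held for Utf1 in siRpl14 (-0.19 to 0.95), Pou5f1 (-0.023 to 0.20) and Nanog (-0.085 to 0.050) in siDux, Sox2 (-0.13 to 0.40) and Sall4 (-0.12 to 0.55) in siRpl14+siDux, Pou5f1 (-0.12 to 0.033), Nanog (-0.17 to 0.049) and Utf1 (-0.22 to 0.70) in siRpl14+siDux against siRpl14, and the Nanog interaction (-0.15 to 0.066).

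Over matched pairs the siRpl14 difference of Sall4 was 0.50 without set 3, 0.15 in set 3 alone and 0.27 to 0.40 without 1 library, and that of Utf1 0.044 with quantile normalization, 0.049 without set 3 and -0.11 to 0.048 without 1 library. The siRpl11 difference of Sall4 was 0.89 without set 3, 0.29 in set 3 alone and 0.52 to 0.87 without 1 library, that of Sox2 0.065 to 0.28 without 1 library, and that of Pou5f1 0.16 with quantile normalization. The siDux difference of Pou5f1 was -0.010 with quantile normalization and -0.013 to 0.050 without 1 library, that of Sox2 -0.056 to 0.11, of Sall4 -0.23 to 0.016 and of Utf1 0.23 to 0.57. Same-numbered libraries of different groups deviated with correlations of -0.451 to 0.466 in set 1 and 0.0383 to 0.0613 in set 3. In set 1 they were 0.169 to 0.466 among siNT, siRpl14 and siRpl11, and -0.451 to -0.222 between siRpl14+siRpl11 and each of these. Deviations in set 1 were thus shared across groups, with the opposite sign in siRpl14+siRpl11. The main fit did not model this sharing, and the replicate numbers were not taken as pairs. The cause of these changes was not tested, except that a stricter filter tests fewer genes and leaving out a library leaves 1 in its group, assumed to vary like the others. With 2 libraries a group and unknown depth, small differences were not resolved.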
